A study of Homo sapiens with 8 samples.

Results

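The genes described here are 8 tumour suppressors, oncogenes and deleted-locus genes of pancreatic carcinoma, CDKN2A, CDKN2B, MTAP, SMAD4, TGFBR2, MYC, ARID1A and RNF43, out of 63568 genes in the count table. They were chosen by name and not by a rule on measured values, but with earlier results of these data known. Reads were counted in the input RNA, the part of each RNA sample kept aside before precipitation with an antibody against N6-methyladenosine (m6A), and m6A peaks were looked for in the gene bodies. The cells were MIAPaCa-2, an established human pancreatic carcinoma line, in 2 conditions. Control cells carried a control short hairpin RNA (shRNA), and METTL3-KD cells, a gifted line, carried one that targets METTL3, whose product is the enzyme writing most m6A in mRNA. The series has 8 samples, which are the m6A and the input library of each condition on 2 sequencer lanes each. With 1 input library per condition the 2 lanes were summed, no p-value between conditions was computed, and the conditions and the libraries cannot be told apart. All intervals are 95% and cover counting error only. Intervals on reads treat each read as independent, though many reads shared a position, and so can be too narrow.

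Pancreatic ductal carcinoma is known for a short list of recurrent lesions. The 9p21 locus, which holds CDKN2A, CDKN2B and MTAP, is often deleted, SMAD4 and TGFBR2 lose function in the TGF-beta pathway, and ARID1A and RNF43 are recurrently mutated, while MYC is amplified or overexpressed. MIAPaCa-2 is known as a line with a homozygous deletion of CDKN2A, which belongs to the background and was not measured here.

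The input libraries held 3237968 reads (control) and 1833005 reads (METTL3-KD), and these lay at few distinct positions. As the authors' peak caller recorded them, 2880835 reads of the control input lay at 9291 distinct positions, or 310 reads per position, and 1337448 reads of the METTL3-KD input lay at 52141 positions, or 25.7 per position. Reads per gene clustered around preferred values, at 508.5 and 1039.6 reads in the control and at 17.3 and 34.2 reads in METTL3-KD. The lower of these values is called the lower mode below, and in each library the upper mode lay near a doubling of it (ratios of 2.04 and 1.98). METTL3 itself had 0 reads in all 4 lanes, so its counts give no check of the knockdown. The epithelial markers KRT8 (10850 reads in the control and 1167 in METTL3-KD) and KRT18 (3535 and 1212) were present, KRT19 had 1 and 201 reads, KRT7 1 and 0, and EPCAM and CDH1 were at 0 in both libraries. In both inputs 0 of 5 acinar, 0 of 4 endocrine and 0 of 4 immune markers had a read. Of 4 mesenchymal genes VIM had 8978 and 5649 reads and ZEB1 0 and 50, and CDH2 and FN1 were at 0 in both. Of 4 fibroblast markers 1, COL1A2, had reads (1804 and 353).

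Of the 8 driver genes, 5 had 0 reads in every lane of both inputs: CDKN2A, CDKN2B, MTAP, TGFBR2 and ARID1A. MYC had reads in both conditions, and SMAD4 and RNF43 had reads in METTL3-KD only. With detection set at more than 3 reads in the summed lanes, 1 of 8 genes was detected in the control and 3 of 8 in METTL3-KD. Among all 19488 protein-coding genes matched to the annotation, 8.93% were detected in the control and 38.7% in METTL3-KD, so the counts for the driver genes were near those backgrounds. A gene without reads was the common case, because 59.1% of protein-coding genes (11518) had 0 reads in both inputs, 31.0% were detected in METTL3-KD alone, 7.78% in both and 1.15% in the control alone. The plot of reads by lane shows the 3 detected genes apart from the 5 others.

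**Figure D1:**
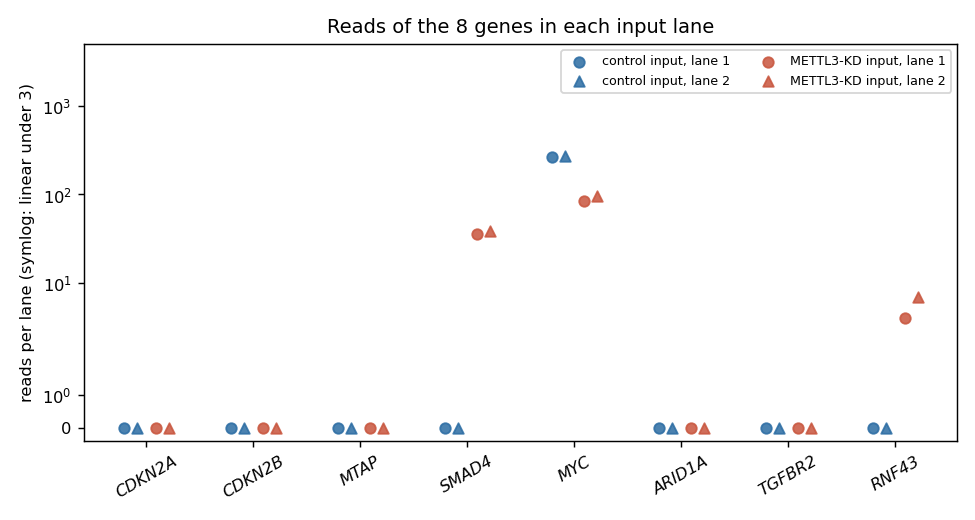
Reads of each of the 8 genes (horizontal axis) in the 2 lanes of the control input (blue) and of the METTL3-KD input (red), on a vertical axis of reads per lane that is linear under 3 and logarithmic above. Each point is 1 lane, and MYC lies between 84 and 272 reads in all 4 lanes, SMAD4 and RNF43 carry reads in the METTL3-KD lanes only, and the 5 other genes lie at 0.

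The share of genes detected went with exonic length. Protein-coding genes were split into 10 classes of equal size by exonic length, the union of exons of all annotated transcripts. In METTL3-KD the share detected was 14.1% in the shortest class and 57.4% in the longest, and in the control it was 3.44% and 14.6%. Counted from the shortest, the driver genes lay in classes 5, 7, 8 and 10. Averaged over the classes of the 8 genes, 48.4% of genes of like length were detected in METTL3-KD and 11.8% in the control, against 3 of 8 and 1 of 8 driver genes. MTAP and ARID1A, at 0 reads, shared the longest class with SMAD4.

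**Figure D2:**
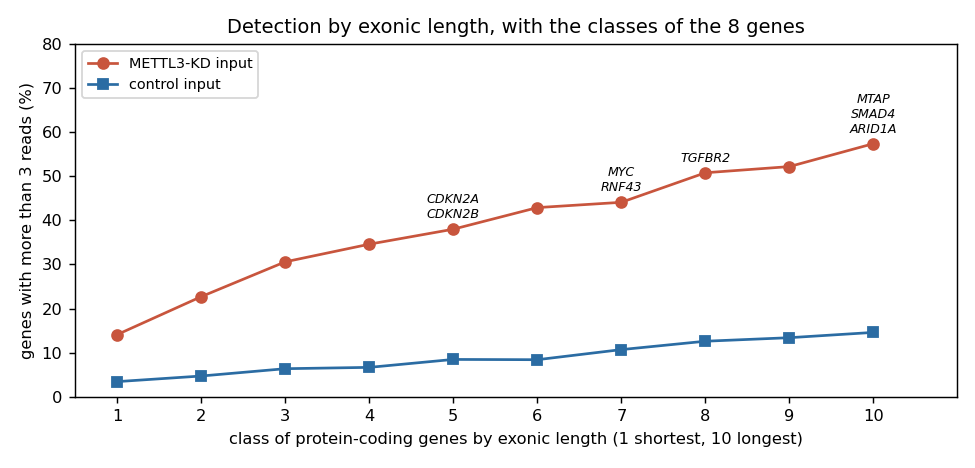
Share of protein-coding genes with more than 3 reads (vertical axis, percent) in each of 10 classes of exonic length (horizontal axis, shortest to longest) for the METTL3-KD input (red circles) and the control input (blue squares), with the 8 genes named at their class. Both lines are higher in the longest class than in the shortest, at 57.4% against 14.1% and at 14.6% against 3.44%.

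CDKN2A (ENSG00000147889.12) encodes the CDK4/6 inhibitor p16INK4a and, in another reading frame, ARF, which restrains MDM2. In GRCh37 coordinates, which all positions here use, it lies on the minus strand at chr9:21967751-21995300. It had 0 reads in control lanes 1 and 2 and 0 reads in METTL3-KD lanes 1 and 2. In CPM, counts scaled to library size, a count of 0 allows up to 1.14 CPM in the control and 2.01 CPM in METTL3-KD. At the 3-read limit these depths could have shown CDKN2A from 0.238 RPKM (CPM per kilobase of exon) in the control and from 0.421 RPKM in METTL3-KD. If the lower mode is taken as the reads of 1 sampled molecule, which was not tested, 3 lower modes are a stricter limit, and it stood at 121 RPKM in the control and at 7.29 RPKM in METTL3-KD. Of its exonic bases 15.3% are overlapped by other genes.

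CDKN2B (ENSG00000147883.9) encodes p15INK4b, the neighbouring CDK4/6 inhibitor that TGF-beta is known to induce, and lies at chr9:22002902-22009304 on the minus strand. It too had 0 reads in each of the 4 lanes, with limits of 0.232 RPKM in the control and 0.409 RPKM in METTL3-KD at 3 reads, and of 118 and 7.08 RPKM at 3 lower modes. MTAP (ENSG00000099810.14, plus strand, chr9:21802635-21937650) encodes the phosphorylase that recycles methylthioadenosine into methionine. It had 0 reads in all 4 lanes. Its union of exons, 14527 nt, is longer, so its limits were lower, at 0.0638 RPKM (control) and 0.113 RPKM (METTL3-KD) at 3 reads and at 32.4 and 1.95 RPKM at 3 lower modes. That union takes all annotated transcripts and may exceed the exons counted, since the annotation behind the counts is not given. With these lengths, at 3 lower modes the METTL3-KD library could have shown MTAP at a level under the 2.09 RPKM measured for SMAD4, but not CDKN2A or CDKN2B at that level.

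The 3 genes of 9p21 lay in a wider stretch without detected genes. Within 2 Mb on each side of CDKN2A the table holds 74 genes, of which 25 are protein-coding, and 0 of 74 were detected in either input. A single read in METTL3-KD, in the 7SL pseudogene RN7SL151P, was the only read of the stretch. Of the 25 protein-coding genes 16 are interferon genes, which are known to be silent in unstimulated cells. The other 9 were MLLT3, FOCAD, HACD4, KLHL9, MTAP, CDKN2A, CDKN2B, DMRTA1 and ELAVL2, of which the last is known mainly from neurons. Elsewhere on chromosome 9, 68 of 748 protein-coding genes (9.09%) were detected in the control and 299 of 748 in METTL3-KD. Within 1 Mb 0 of 57 genes were detected, and within 5 Mb 2 of 132 in the control and 7 in METTL3-KD.

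The nearest detected gene toward the telomere was RPS6, a protein of the small ribosomal subunit, at a distance of 2.59 Mb. Its reads numbered 412 and 428 in the control and 538 and 518 in METTL3-KD. Toward the centromere the nearest was CAAP1, at 4.85 Mb, with 0 reads in the control and 22 and 16 in METTL3-KD. In the control the first gene with reads on that side was NDUFB6, a subunit of respiratory complex I, at 10.6 Mb (177 and 172 reads, and 9 and 9 in METTL3-KD). The map of the region shows detected genes on both sides in METTL3-KD and on the telomeric side in the control. The files hold no DNA data, so the copy number of the stretch was not tested.

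**Figure D3:**
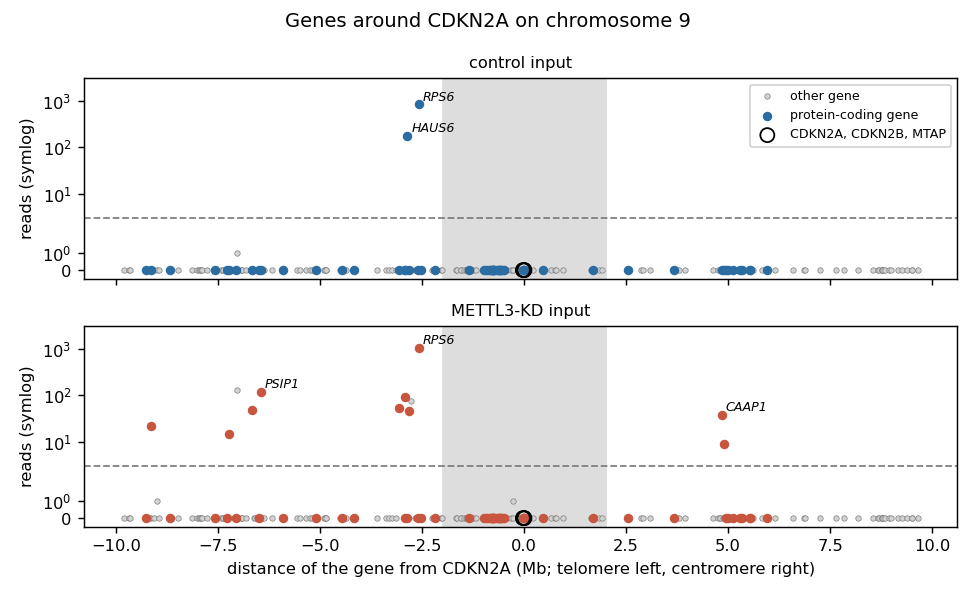
Reads per gene (vertical axis, linear under 3 and logarithmic above) against distance from CDKN2A in Mb (horizontal axis, telomere to the left) for the control input (upper panel) and the METTL3-KD input (lower panel), with protein-coding genes as filled points, other genes as small grey points, the 3 driver genes circled, the 2 Mb on each side shaded and the 3-read limit dashed. The shaded stretch holds 1 read in all, while RPS6, 2.59 Mb away, has 840 and 1056 reads.

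Most listed partners of the 9p21 genes were detected in METTL3-KD. A set of 17 genes of the INK4-CDK-RB axis holds the kinases that p16INK4a and p15INK4b inhibit, the D cyclins, other CDK inhibitors, the RB family and E2F factors. Of these 1 was detected in the control and 12 in METTL3-KD. Among the 12 genes with at least 10 reads over both inputs, 11 had a log2 ratio of METTL3-KD over control above 2 and 0 under -2, and 10 of the 11 had 0 control reads. Of all 9931 genes tested in this way 79.1% lay above 2 and 7.37% under -2, and 93.9% of the genes above 2 had 0 control reads. The median log2 ratio of the set was 6.34 with genes at or under 3 reads placed at 3, beside 5.70 over all genes tested. CDK6, the kinase detected in both conditions, had 466 and 499 reads in the control and 98 and 103 in METTL3-KD, or 1.9 and 11.6 lower modes. Its log2 ratio was -0.07 (-0.30 to 0.15) with TMM, 0.22 with DESeq2 size factors and -1.44 with total counts, so its direction depended on the scaling. CDK4 had 0 and 1 reads in the control and 84 and 83 in METTL3-KD, and the RB-like protein gene RBL2 had 0 and 0 against 102 and 97. RB1 (0 and 59 reads summed), E2F1 (0 and 91) and MDM2 (0 and 105) had reads in METTL3-KD alone, and CDKN2C, CDKN1A, CCND2 and E2F2 had 0 in both.

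The methionine salvage and PRMT5 set holds enzymes on both sides of the MTAP step, those of polyamine synthesis that release methylthioadenosine and those that turn the MTAP product into methionine, together with PRMT5, which methylthioadenosine inhibits, and its partners. Loss of MTAP is known to make cells depend more on PRMT5 and MAT2A. All 14 genes of this set were detected in METTL3-KD and 4 in the control. Of 14 tested, 10 lay above a log2 ratio of 2, all 10 with 0 control reads, and 1 under -2, with a median of 6.05 placed as above. MAT2A, which makes S-adenosylmethionine, had 969 and 992 reads in the control and 164 and 184 in METTL3-KD, a log2 ratio of -0.30 (-0.47 to -0.14) with TMM, -0.01 with DESeq2 size factors and -1.67 with total counts. Relative to the median of genes with at least 10 reads in each library MAT2A was 0.31 higher under each of the 3. PRMT5, the arginine methyltransferase, had 0 and 0 reads against 73 and 50, and its partner WDR77 had 0 and 107 summed. CLNS1A, another PRMT5 partner, was the gene under -2, with 517 and 557 reads against 18 and 19 and a log2 ratio of -2.64 (-3.18 to -2.19). In lower modes CLNS1A had 2.11 in the control and 2.14 in METTL3-KD. AMD1, of polyamine synthesis, had 501 and 458 against 81 and 71 (log2 ratio -0.46, -0.72 to -0.22, with TMM, -0.17 with DESeq2 size factors and -1.83 with total counts). MTAP itself had 0 reads in METTL3-KD, where each of the 14 listed genes was detected. Of all protein-coding genes 38.7% were detected in METTL3-KD, and of those in the longest class, which holds MTAP, 57.4%. Why MTAP was at 0 was not tested.

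SMAD4 (ENSG00000141646.9), the common mediator that carries receptor-activated SMADs to DNA, lies at chr18:48554898-48611415 on the plus strand. The control lanes gave 0 and 0 reads for SMAD4, whereas those of METTL3-KD gave 36 and 39. Both lanes of the METTL3-KD library thus held reads and both of the control held none, a pattern shared with many genes, since 31.0% of protein-coding genes were detected in METTL3-KD alone. The lanes are runs of 1 library and add no check of the conditions. The METTL3-KD reads correspond to 40.9 CPM (32.2 to 51.3), to 2.09 RPKM and to 4.34 lower modes. This RPKM lay at the 19.6th percentile of the protein-coding genes detected in METTL3-KD. Scaled reads of SMAD4 were at least 114-fold higher in METTL3-KD with trimmed-mean (TMM) scaling and at least 44.2-fold higher with total counts, against a floor of 3 control reads. These bounds concern reads and not expression, because at 3 lower modes the control could have shown SMAD4 only from 24.0 RPKM, above its level in METTL3-KD. As fitted with a prior count of 2 the log2 ratio was 6.72, and it was 1.19 when reads were first divided by the lower mode. In a bulk library, fewer cells with a transcript and less RNA per cell cannot be told apart.

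TGFBR2 (ENSG00000163513.13, plus strand, chr3:30648093-30735634) encodes the receptor that binds TGF-beta and activates TGFBR1. It had 0 reads in all 4 lanes, with limits of 0.135 RPKM in the control and 0.239 RPKM in METTL3-KD at 3 reads, and of 68.8 and 4.13 RPKM at 3 lower modes. Its partner TGFBR1 had 495 and 527 reads in the control and 0 and 0 in METTL3-KD, at least 74.5-fold lower. ACVR2A, the type II activin receptor, had 453 and 472 reads against 0 and 0, at least 67.4-fold lower. Both control counts amount to about 2 lower modes (2.01 and 1.82), so these bounds, too, concern reads and not expression. Thus the TGF-beta receptor pair was read incompletely in each library, with TGFBR1 alone in the control and neither in METTL3-KD.

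Among 26 genes of the TGF-beta/SMAD pathway, 4 were detected in the control and 14 in METTL3-KD, and 10 had 0 reads in both. Of 16 tested, 12 lay above a log2 ratio of 2, 11 of them with 0 control reads, and 2 under -2, which are the receptor genes just described. The median was 4.97 with low counts placed at 3 reads. The receptor-activated SMAD genes SMAD2 (0 and 0 reads against 99 and 101) and SMAD3 (0 and 141 summed) had reads in METTL3-KD like SMAD4. The ligand TGFB1 had 0 and 21 reads summed, and TGFB2 and TGFB3 had 0 in both. The target gene ID1 had 515 and 498 reads against 31 and 30, a log2 ratio of -1.85 (-2.26 to -1.49) with TMM and -3.20 with total counts. The inhibitory SMAD6 and SMAD7 had 0 in both.

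MYC (ENSG00000136997.10), the transcription factor that drives growth and metabolism, lies on the plus strand at chr8:128747680-128755197. It was the driver gene with reads in all lanes, 267 and 272 in the control and 84 and 97 in METTL3-KD. The lanes of each library differed little, and the control lanes held more reads than the METTL3-KD lanes. Scaled to library size MYC stood at 166 CPM (153 to 181) in the control and 98.7 CPM (84.9 to 114) in METTL3-KD, or at 27.2 and 16.2 RPKM. The direction of the ratio turned with the scaling. With TMM the log2 ratio of METTL3-KD over control was 0.62 (0.37 to 0.86), with DESeq2 size factors 0.91, and with total counts -0.75. The median log2 ratio of the 1871 genes with at least 10 reads in each library was negative under all 3 and shifted too, at -0.61, -0.32 and -1.98. Relative to that median MYC was 1.23 higher under each of these 3 scalings, at the 74.6th percentile of those genes.

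Counted in lower modes MYC had 1.06 in the control and 10.5 in METTL3-KD. Taken as molecules, the control level would rest on 1. An interval from 1 and 10 whole modes, scaled by TMM on modes, ran from -1.95 to 6.30 around a log2 ratio of 0.86, and so included 0. Within its own library the RPKM of MYC lay at the 28.9th percentile of detected protein-coding genes in the control and at the 82.6th in METTL3-KD. The plot of reads per gene shows MYC on the lower control peak and in the upper part of the METTL3-KD distribution.

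**Figure D4:**
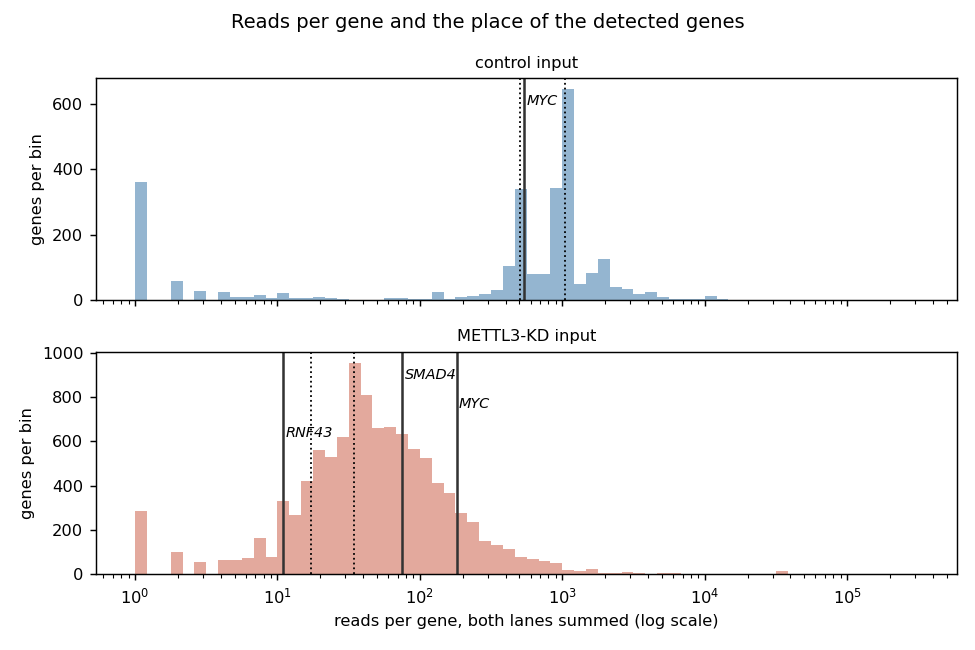
Number of genes per bin (vertical axis) by reads per gene with both lanes summed (horizontal axis, log scale) in the control input (upper panel) and the METTL3-KD input (lower panel), with solid lines at the driver genes that had reads and dotted lines at the lower and upper modes. MYC, at 539 reads, lies beside the control mode at 508.5, and in METTL3-KD RNF43 (11 reads) lies under the mode at 17.3, with SMAD4 (75) and MYC (181) above 34.2.

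The genes nearest to MYC over the 4 lanes, by Euclidean distance of log2 scaled CPM plus 1 among 8881 genes, were SPRY2, an inhibitor of receptor tyrosine kinase signalling, at 0.145 (280 and 269 reads against 84 and 106), and ICMT, a methyltransferase of prenylated proteins, at 0.174 (293 and 254 against 82 and 94). For SMAD4 4 genes had identical counts in every lane, among them BROX and TRIM5, and for RNF43 13 genes did, among them NIF3L1 and CYP2U1. Such ties show how coarse these counts are.

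The MYC network set holds dimer partners, antagonists and regulators of MYC. Of 16 genes 3 were detected in the control and 9 in METTL3-KD, 7 had 0 in both, and of 9 tested 7 lay above 2 (6 with 0 control reads) and 2 under -2, with a median of 6.10 placed as above. The genes under -2 were MXD4, a MAX partner that opposes MYC (557 and 571 reads against 12 and 6, log2 ratio -3.72, -4.54 to -3.11), and PVT1, the long noncoding RNA gene beside MYC (525 and 511 against 2 and 3, log2 ratio -5.31, -7.13 to -4.27). In reads MXD3 went the other way, with 0 and 0 against 83 and 91. The obligate partner MAX had 0 and 45 reads summed.

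ARID1A (ENSG00000117713.13, plus strand, chr1:27019727-27108595), the DNA-binding subunit of the BAF form of SWI/SNF, had 0 reads in all 4 lanes. Its limits were 0.0581 RPKM in the control and 0.103 RPKM in METTL3-KD at 3 reads, and 29.6 and 1.78 RPKM at 3 lower modes. The rest of the complex was read widely, since 21 of 25 other subunit genes were detected in METTL3-KD and 8 in the control. Of 21 tested, 13 lay above 2, all 13 with 0 control reads, and 1 under -2, with a median of 5.19 placed as above. The paralogue ARID1B was at 0 in both, like ARID1A, and ARID2, of the PBAF form, had 0 and 0 reads against 63 and 51. The ATPase gene SMARCA4 had 1248 and 1210 reads against 103 and 108, a log2 ratio of -1.35 (-1.56 to -1.15) with TMM and -2.71 with total counts. SMARCE1 had 839 and 905 against 48 and 45, a log2 ratio of -2.03 (-2.35 to -1.73) with TMM and of -1.73 with DESeq2 size factors. In lower modes SMARCE1 had 3.43 in the control and 5.38 in METTL3-KD. ACTB, which is also cytoskeletal actin, had 6562 and 6680 against 3220 and 3329 (log2 ratio 1.18, 1.13 to 1.22, with TMM, 1.47 with DESeq2 size factors and -0.19 with total counts), so its direction depended on the scaling.

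RNF43 (ENSG00000108375.8, minus strand, chr17:56431037-56494956) encodes the ubiquitin ligase that removes Frizzled receptors from the cell surface and so dampens Wnt signalling. It had 0 and 0 reads in the control and 4 and 7 in METTL3-KD, which is 6.0 CPM (3.0 to 10.7), 0.948 RPKM and 0.636 of a lower mode. The count lay above 3 reads but under the lower mode, at the 5.7th percentile of detected protein-coding genes. Scaled reads were at least 16.8-fold higher in METTL3-KD with TMM and at least 6.48-fold higher with total counts, and the fitted log2 ratio was 4.03. The assignment of these reads is uncertain, since 69.0% of the exonic bases of RNF43 are overlapped by other genes, and 4252 of its 6606 transcript windows of 75 nt (64.4%) also occur in transcripts of TSPOAP1-AS1 or of ENSG00000285897. The strand setting of the counting is not given in the sources used here.

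In the Wnt receptor set around RNF43, 1 of 27 genes was detected in the control and 14 in METTL3-KD, and 13 had 0 in both. Of 13 tested, 12 lay above 2, all with 0 control reads, and 0 under -2, with a median of 5.65 placed as above. The paralogue ZNRF3 had 0 and 5 reads summed, close to RNF43. The receptors FZD8 (0 and 0 reads against 40 and 60), FZD4 (0 and 48 summed) and FZD6 (0 and 33) had reads in METTL3-KD, while the LGR and RSPO genes, which act upstream of RNF43, had 0 in both. The co-receptor gene LRP5 had 508 and 490 reads against 57 and 60, a log2 ratio of -0.90 (-1.19 to -0.62) with TMM and -2.26 with total counts, and CTNNB1, the beta-catenin gene, had 0 and 0 against 167 and 151. The plot of detected genes by pathway sets these shares beside the driver genes.

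**Figure D5:**
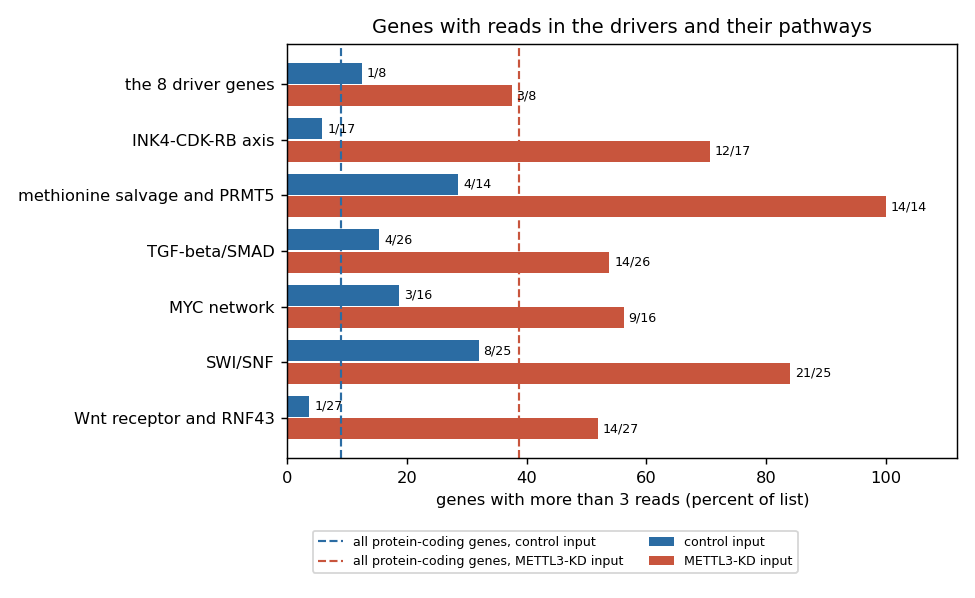
Genes with more than 3 reads as a percent of each list (horizontal axis) for the 8 driver genes and 6 pathway lists (vertical axis), with blue bars for the control input, red bars for the METTL3-KD input, the counts at the bar ends, and dashed lines at the shares of all protein-coding genes, 8.93% and 38.7%. In METTL3-KD the driver genes (3 of 8) lie beside the dashed line and the 6 pathway lists lie above it, up to 14 of 14 for methionine salvage and PRMT5.

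To see whether the driver transcripts carried m6A signal, the peaks of both lists with q under 0.01 were placed on gene bodies. No driver gene held a peak in the control list or in the METTL3-KD list (0 of 8 in each), and the same count came from the full lists with gene bodies widened by 5 kb. Over all protein-coding genes 9.25% had a control peak and 3.59% a METTL3-KD peak, so 0 of 8 lay near the background. The nearest control peak to a driver gene was 611038 bp away (RNF43) and the farthest such distance was 3187281 bp (SMAD4). In the METTL3-KD list the distances ran from 107289 bp (MTAP) to 1352729 bp (ARID1A). The peak nearest to MTAP lies at chr9:21695247-21695346 in the processed pseudogene KHSRPP1, with 1 fragment and a q value of 0.0118, outside the 0.01 threshold. A peak needs fragments in sequenced molecules, and 4508 distinct positions in the METTL3-KD m6A library and 7920 in the control one limit what could be seen.

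Some listed partners of the driver genes held peaks. Of 125 pathway genes 17 had a control peak and 9 a METTL3-KD peak, beside 9.25% and 3.59% of all protein-coding genes. No test compared these shares. The 2 genes with both, BMPR1A and ARID2, had them at different positions. The other genes with a control peak included E2F3, CTNNB1 and SMAD5, the methionine and polyamine genes MRI1, SRM, SMS, ODC1, PRMT5 and CLNS1A, and the SWI/SNF genes SMARCD2 and ACTL6A. Of these SMS had the most METTL3-KD input reads, 177 and 209, with 0 and 0 in the control. The METTL3-KD peaks lay in RBL1, BMPR2, MXD1, MXD4, SMARCD1, PBRM1 and PORCN besides. The 22 control peaks were in coding sequence (8), 3′UTR (6), intron (5), 5′UTR (2) and a noncoding exon (1), and of the 10 METTL3-KD peaks 7 were intronic, 2 coding and 1 in a 3′UTR. By number of fragments at the summit, 17 of 22 control peaks and 10 of 10 METTL3-KD peaks rested on 1 or 2. Of the 17 pathway genes with a control peak 15 had at most 3 control input reads. Over all protein-coding genes with a control peak that share was 83.2%, beside 91.1% of all protein-coding genes, so few input reads were the general state of the control library. Of the 9 pathway genes with a METTL3-KD peak 3 had at most 3 METTL3-KD input reads, and over all protein-coding genes with such a peak the share was 33.8%, beside 61.3% of all protein-coding genes.

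Control peaks in SMAD2, CCND3 and BCL7C, with at least 3 fragments each, were among the best supported m6A signals in the pathway genes. A peak with 9 fragments in an intron of E2F3 was left out because it lies in the 7SL copy RN7SL128P. Shown are 30 nt around each summit, from the genome in transcript direction. They are in lower case because none holds GGACT, a form of the m6A consensus, which would be in capitals. Other forms of the consensus were not marked. SMAD2, the SMAD4 partner, had 4 fragments and a fold of 5.0 in the 3′UTR at chr18:45367514-45367617. CCND3, a D cyclin, had 3 in coding sequence at chr6:41908261-41908362, and BCL7C, of SWI/SNF, had 3 at chr16:30904209-30904312, where 2 other genes overlap.
SMAD2: tgttcagtggggcttaaacagtcattcttt
CCND3: caggtatgtgaggagcagcgctgtgaggag
BCL7C: ccccaggagcgaaggcgggcaggtggcggg
Among peaks in protein-coding genes, GGACT was found on the transcript strand within 50 nt of the summit in 151 of 1917 control peaks (7.88%) and in 50 of 663 METTL3-KD peaks (7.54%). The share in windows away from peaks was not computed, so these values cannot show whether GGACT was enriched. The METTL3-KD list had no peak at the SMAD2, CCND3 or BCL7C sites, where its library, with 4508 positions, was also the smaller of the m6A libraries.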

How the data were processed

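For the input files, the authors filtered out ribosomal reads (Bowtie2), mapped the rest to hg19 (HISAT2) and ran featureCounts. The deposited values are raw whole-number counts of reads per gene in each input lane, without duplicate removal as far as stated. The annotation release, strand setting and treatment of reads with several alignments are not given in the sources used here. Libraries came from a stranded kit without oligo-dT selection. The authors called peaks with MACS2 2.1.1, m6A against input with lanes pooled, fragments extended to 100 bp and 1 read kept per position. Their pileup column is a signal (fragments at the summit), their fold column is a ratio of that signal to local background, and the deposited −log10 column holds q values. The file headers give a q threshold of 0.05 and the methods 0.01, which was used.

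Lanes L001 and L002 were taken as lanes of 1 library and summed. Chi-square per degree of freedom between the lanes was 2.07 (p = 5.82e-167) for the control input and 1.06 (p = 1.55e-05) for the METTL3-KD input, so the lanes did differ by more than counting noise. Log2 ratios used TMM factors over all genes (edgeR 4.0.16), a prior count of 2 and genes with at least 10 reads over both libraries, with a size threshold of 2. Genes (55665 of 63568) were matched by Ensembl ID to GENCODE 44 on GRCh37, which is hg19. RPKM used total reads and the union of exons in GENCODE 44, which may differ from the exons counted. A peak was in a gene with an overlap of 1 bp. Intervals were Clopper-Pearson or its conditional form for ratios (scipy 1.17.1). The ratio script was run on simulated independent reads from a profile shared by both libraries, with known folds in 200 genes. That setting lacks the many reads per position of these libraries. It checks the code and not the ratios reported here. DESeq2 1.42.0 gave alternative scalings.

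The members, gene lists and thresholds were chosen with earlier results of these data known. Named genes were the members, METTL3, the 3 genes with most reads and those with a peak in each pathway list, genes with reads around 9p21 and the 2 genes nearest in pattern to each member with reads. Marker genes and other list genes were named after their values were seen. List genes without values in the text enter only the list counts.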

Additional observations from a re-analysis of the deposited data

How the results depend on the processing

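MYC was the member whose direction turned, to -0.75 with total counts, against 0.91 under DESeq2 size factors and 1.18 in DESeq2 with lanes as replicates. Its range without either lane was 0.69 to 0.89. The fitted ratio of SMAD4 stayed above 2, at 8.71 and 4.45 under prior counts of 0.5 and 10, 5.72 with total counts, 10.43 in DESeq2 with lanes as replicates and 5.82 to 5.95 without a lane, except for 1.19 with reads divided by the lower mode. RNF43 stayed above 2, at 5.96 and 2.02 under the same prior counts, 3.11 with total counts and 7.65 in DESeq2 with lanes as replicates, and had too few reads for a value without a lane, with at least 50 reads or in lower modes. With lanes as replicates in edgeR, SMAD4 was 9.89 without and 9.89 with the lane as replicate block, and RNF43 7.13 and 7.12. The lane deviations of the conditions correlated at -0.0132 over 1871 genes, so the lane numbers did not pair the samples.

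The number of members above 2 was 1 with at least 50 reads (63.7% of all genes tested), 1 without either lane (77.0% and 76.5%), and 0 in lower modes (9.66%), where the prior count of 2 is added to modes and not to reads. Around CDKN2A, 5 Mb on each side gave 2 and 7 detected genes, and at least 1 read as the limit gave 1 gene in METTL3-KD. Genes under -2, checked by alternatives chosen after seeing the data, numbered 4 with total counts in the TGF-beta/SMAD list and 1 in the Wnt receptor list. In the SWI/SNF list they numbered 0 under DESeq2 size factors, 6 under total counts and 0 to 0 without either lane. Among the recomputed member values, counts and shares, 100 were classed as the same, 31 as moved and 1 as reversed. The first class is broad and does not mean equal values. It includes the TGF-beta/SMAD genes above 2, which numbered 12 in the main setting and 8 without lane 2. It also includes values that a setting could not change, such as the ratio of SMAD4 under another read minimum. Of 85 tested list genes the sign of the ratio was opposite to that with TMM in 1 under DESeq2 size factors (CDK6) and in 3 under total counts (ADI1, SMARCC1 and ACTB). Peaks in members stayed at 0 under each peak setting. For the members at 0 reads the limits depended on the unit counted. In the control they were up to 0.238 RPKM at 3 reads and up to 121 RPKM at 3 lower modes, both for CDKN2A. The reading of a lower mode as 1 molecule was not tested.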
